A study of Mus musculus with 10 samples.

Results

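The genes described here are 10 components of the Notch pathway, chosen by name among the 25239 gene symbols measured in cardiomyocytes of the mouse heart. They are the 4 receptors Notch1, Notch2, Notch3 and Notch4, the 4 ligands Jag1, Jag2, Dll1 and Dll4, the DNA-binding protein Rbpj and the feedback regulator Nrarp, and all 10 had a row in the tables. RNA came from cardiomyocytes of the atrium (aCM, 5 libraries) and of the ventricle (vCM, 5 libraries), which are the beating muscle cells of the heart's filling and pumping chambers, all from wild-type mice. No treatment is given, and the labels name neither strain, age or sex nor the way the cells were isolated, and do not say whether animals were pooled. Values are normalized reads, that is, read counts divided by the authors' scaling factor for each library, and they were tested as log2(normalized reads + 1).

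Notch receptors span the cell membrane and are activated by ligands of the Jagged and Delta-like families on a neighbouring cell. Ligand binding exposes the receptor to cleavage by ADAM proteases and then by gamma-secretase, and the freed intracellular domain joins Rbpj and Mastermind-like proteins on DNA to switch on targets such as Hey, Hes and Nrarp genes. In the heart the pathway is best known from endocardium, arterial endothelium and the mural cells of vessels, where it acts in valve formation, trabeculation and vessel patterning.

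The libraries fell into a set of 4 (replicates 1 and 2 of both chambers) and a set of 6 (replicates 3 to 5), a division seen in the data that the labels do not name. Recovered reads came to 1790402 to 4445287 in the first set and 11163805 to 12842635 in the second, in which 23.1% to 29.8% of reads lay on the ribosomal RNA precursor Rn45s, against 0.215% to 0.480% in the first. Where no read was counted, as many as 3 could have been missed, equal to 4.14 to 10.4 normalized reads in the first set and 1.70 to 2.005 in the second, by counting error alone. Cardiomyocyte markers were abundant, with 8 markers summing to 333051 to 821848 normalized reads in atrial and 355525 to 697683 in ventricular libraries. Transcripts of other cells were present too: 8 fibroblast markers summed to 14438 to 33391 in atrial and 6093 to 52021 normalized reads in ventricular libraries. In such bulk samples fewer cells of a type and less RNA per cell cannot be told apart.

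The ligand Jag2 was higher in atrial cardiomyocytes, the feedback regulator Nrarp was lower, and limma without a replicate block called no receptor over all 10 libraries, while edgeR, DESeq2 and the blocked test called Notch3, lower in atrial cells. A gene was tested where its mean over the 10 libraries was at least 10 normalized reads, which 8 members passed. Dll1 and Dll4, with means of 5.77 and 2.53, did not. Of the 8, 1 was called toward atrium and 1 toward ventricle at an adjusted p of 0.05 (limma, Benjamini-Hochberg over 12422 genes). Over all genes tested 14.7% were called, 8.12% toward atrium and 6.56% toward ventricle, so that 55.3% of the calls lay toward atrium, and 65.3% did when libraries were scaled to equal totals. The same 2 members were those whose 5 atrial and 5 ventricular values did not overlap, which held for 14.4% of all genes tested. Over the 8 tested members the median log2 difference, atrial minus ventricular, was -0.18, and over all genes tested it was -0.01.

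**Figure D1:**
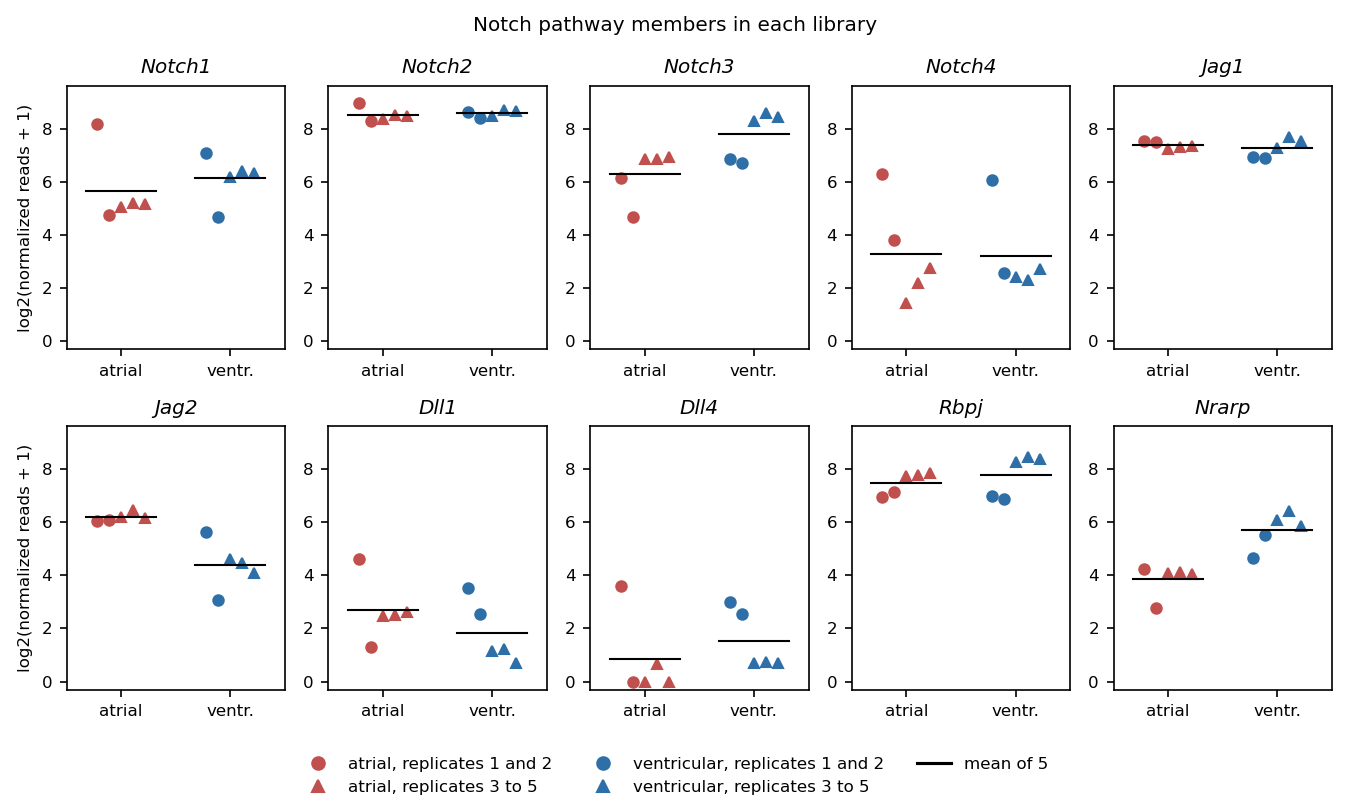
Level of each member in every library as log2(normalized reads + 1), with atrial libraries left and ventricular libraries right in each panel. Circles are replicates 1 and 2, triangles are replicates 3 to 5 and lines are means of 5. Jag2 and Nrarp are the members whose chambers do not overlap, and Notch1, Notch4, Dll1 and Dll4 are highest in replicate 1 of both chambers.

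Among the receptors, Notch2 had the highest level per length in all 5 atrial libraries, while in ventricular cells the order of Notch2 and Notch3 depended on the library set. Per kilobase of exon (union of GENCODE M21 exons), Notch2 stood at 34.4 ± 6.99 normalized reads in the atrial group, against 35.4 ± 3.14 in the ventricular group (SD, n = 5). Of the summed receptor level per kilobase it made up 66.3% ± 9.68 in atrial and 49.7% ± 10.97 in ventricular libraries. Notch3 followed with a share of 21.3% ± 10.9 in atrial and 39.9% ± 14.6 in ventricular libraries, where its mean level was 31.3 ± 16.4 per kilobase. In ventricular replicates 1 and 2 it stood at 14.1 and 12.96 per kilobase, below Notch2 at 36.9 and 31.4. In ventricular replicates 3 to 5 it stood at 38.9, 47.1 and 43.2, above Notch2 at 32.9, 38.9 and 37.1. Notch1, at 5.83 ± 7.96 per kilobase in atrial and 5.53 ± 2.77 in ventricular cells, and Notch4, at 2.51 ± 3.99 and 2.10 ± 3.39, were the lowest receptors. Within 1 SD, Notch3 overlapped with Notch1 but not with Notch2 in atrial cells, it overlapped with Notch2 but not with Notch1 in ventricular cells, and Notch1 overlapped with Notch4 in both.

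Notch2, the receptor whose loss disturbs cardiac outflow and vascular smooth muscle development, did not pass the test between chambers over the 10 libraries. Its normalized reads were 501, 311, 328, 363 and 351 in atrial replicates 1 to 5, against 398, 339, 355, 419.7 and 399.7 in ventricular replicates 1 to 5. Atrial replicate 1 was the highest library and the groups overlapped. The log2 difference was -0.06 ± 0.14 (SE, limma, adjusted p = 0.870), and a p of this size does not show equality. The Notch2 gene lies on chromosome 3 (GRCm38, 98013527 to 98150361, plus strand). It shares 541 exon bases with Gm42820 on the same strand, which had no row.

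Notch3, the receptor of vascular smooth muscle cells and pericytes, was lower in atrial cells of every replicate number, but its call depended on how the replicates were treated. It had 69.0, 24.5, 114, 115 and 122 normalized reads in atrial replicates 1 to 5, against 114, 105, 315, 381 and 349.7 in ventricular replicates 1 to 5. Each set showed the lower atrial value, and the overlap came from atrial replicates 3 to 5 lying level with ventricular replicates 1 and 2. The log2 difference was -1.49 ± 0.52 (limma, adjusted p = 0.0861), a 2.85-fold higher ventricular mean. With the replicate number as a block the adjusted p was 0.000393 (limma), and it was 0.000300 with the library set as a term. Count tests on the recovered reads called it as well, with adjusted p = 0.0437 by edgeR's quasi-likelihood test and 0.01001 by DESeq2. With both sets kept apart the difference was -1.39 ± 0.49 in replicates 1 and 2 (limma, adjusted p = 0.172) and -1.56 ± 0.08 in replicates 3 to 5 (adjusted p = 5.42e-15). Notch3 lies on chromosome 17 (32120820 to 32166852, minus strand). It shares 488 exon bases with Gm17276 on the opposite strand, which had no row.

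Some markers of mural cells and fibroblasts were, like Nrarp, higher in ventricular cells. Of the 11 smooth muscle and pericyte markers 9 were tested and 4 were called, all higher in ventricular cells: Myh11, Acta2, Abcc9 and Cspg4. The pericyte markers Pdgfrb (-0.19 ± 0.34) and Rgs5 (-0.99 ± 0.58) were not called (log2 differences, limma, adjusted p = 0.817 and 0.331). With the replicate block 5 passed toward ventricle, Rgs5 among them (limma, adjusted p = 0.000898), and 1 toward atrium. Whether cardiomyocytes themselves made some of these RNAs was not tested. The list summed to 2416 to 7486 normalized reads in atrial and 11922 to 17983 in ventricular libraries, and Higd1b and Vtn were at 0 in some of the libraries. Of 8 fibroblast markers, Pdgfra and Lum were higher in ventricular cells (limma, adjusted p = 0.00225 and 0.0350) and the other 6 were not called. With the replicate block 3 passed, all toward ventricle. Between the sets, the fibroblast sum was 14438 to 22456 in atrial and 6093 to 15066 in ventricular replicates 1 and 2, and 31360 to 33391 in atrial and 39867 to 52021 in ventricular replicates 3 to 5. The part of these cells in the Notch3 and Nrarp values was not tested.

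Notch1, a receptor of endothelium and endocardium, was highest in replicate 1 of both chambers. It reached 286 normalized reads in atrial replicate 1, against 25.9, 32.4, 36.0 and 34.8 in atrial replicates 2 to 5. Ventricular replicate 1 was likewise the highest of its group at 135, with 24.4, 70.6, 83.5 and 80.3 in ventricular replicates 2 to 5. Over all libraries the log2 difference was -0.46 ± 0.65 (limma, adjusted p = 0.759). In replicates 3 to 5 the atrial mean was 34.4 ± 1.82 and the ventricular mean 78.2 ± 6.71 (SD, n = 3), without overlap and 2.27-fold higher in ventricular cells (-1.16 ± 0.13 on the log2 scale, limma, adjusted p = 3.94e-08). In replicates 1 and 2 the estimate was 0.58 ± 1.56 (adjusted p = 0.910), and the test of the difference between the sets did not pass (limma, adjusted p = 0.480). The Notch1 gene (ENSMUSG00000026923, chromosome 2, 26457903 to 26516663, minus strand) shares 1068 exon bases with 0610009E02Rik on the opposite strand, which averaged 3.02 normalized reads.

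Notch4, a receptor known mainly from endothelium, showed the same pattern at a lower level. It had 77.2, 12.95, 1.70, 3.54 and 5.79 normalized reads in atrial replicates 1 to 5, against 65.7, 4.87, 4.34, 4.01 and 5.56 in ventricular replicates 1 to 5. Replicate 1 stood apart in each chamber, and elsewhere the gene rested on 2 to 9 reads per library. The chamber difference was 0.08 ± 0.99 on the log2 scale (limma, adjusted p = 0.976). Replicates 1 and 2 together were higher than replicates 3 to 5 by 2.37 ± 0.69 (limma, adjusted p = 0.0130).

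Most endothelial markers were highest in the same libraries, and so were some markers of other cells. Of 16 endothelial and endocardial markers, 11 were highest in replicate 1 of both chambers, as were 4 of the 10 members, namely Notch1, Notch4, Dll1 and Dll4. So were 5 of 8 macrophage, 4 of 8 neuronal and Schwann, 3 of 8 cardiomyocyte and 2 of 11 smooth muscle and pericyte markers. Among 8 fibroblast and 6 epicardial markers 0 were. No share over all genes is given beside these counts, so they cannot be read as a trait of the members or of any list. The cardiomyocyte sum was 821848 in atrial and 697683 in ventricular replicate 1, against 333051 to 546205 in the other 8. Pecam1, an adhesion molecule of endothelial junctions, had 626 normalized reads in atrial replicate 1 and 329 in ventricular replicate 1, against 3.86 to 34.5 in the other 8 libraries. Cdh5, the endothelial cadherin, had 419 and 277 in these 2 libraries and 4.13 to 27.2 in the other 8. The endothelial receptor Tie1 had 399 and 72.7, against 1.93 to 20.2. Summed over the list, the level was 5150 in atrial replicate 1 and 1889 in ventricular replicate 1, and 368 to 1942 in the other 8, where Npr3, Tek and Kdr made up most of the sum. These 3 were higher in atrial cells (limma, adjusted p = 0.00968, 0.0407 and 0.0293), the other 9 tested markers were not called, and 5 passed toward atrium with the replicate block. In replicates 3 to 5 alone, where Notch1 was lower in atrial cells, 4 of the markers were higher in atrial cells and 5 were lower. The higher ones included Kdr (2.19), Npr3 (1.499) and Tek (0.54) on the log2 scale (limma, adjusted p = 7.16e-07, 1.34e-10 and 2.65e-07). Among the lower ones were Pecam1 (-1.23), Cdh5 (-1.76) and Flt1 (-1.99) (limma, adjusted p = 0.00118, 3.28e-06 and 5.74e-07). In atrial replicates 3 to 5 Pecam1 stood at only 3.86 to 5.11 and Cdh5 at 4.13 to 7.95 normalized reads. Over the whole list, Sox17, Sox18, Cldn5 and Ly6c1 were at 0 in some libraries. Both replicate 1 libraries also had reads over more genes, 21576 in atrial and 19232 in ventricular cells, than the other 8, with 15950 to 16618. The part of endothelial RNA in the values of these 4 members was not tested.

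**Figure D2:**
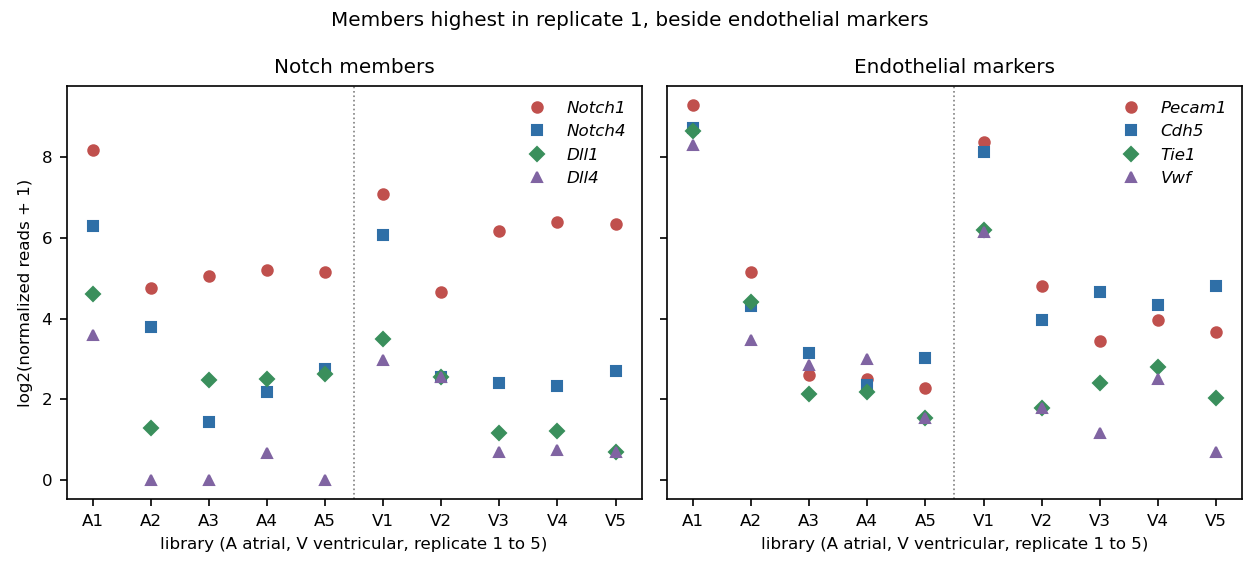
Level in each library, as log2(normalized reads + 1), of Notch1, Notch4, Dll1 and Dll4 (left) and of the endothelial markers Pecam1, Cdh5, Tie1 and Vwf (right), with atrial libraries left of the dotted line and ventricular libraries right of it. All 8 genes are highest in replicate 1 within each chamber, Notch1 at 286 and 135 normalized reads and Pecam1 at 626 and 329. They were picked with these values known, and no share over all genes is given.

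Jag2 was the ligand that differed between chambers. It had 64.8, 66.2, 71.6, 85.5 and 68.9 normalized reads in atrial replicates 1 to 5, against 48.4, 7.31, 23.5, 20.7 and 16.1 in ventricular replicates 1 to 5. The atrial libraries were close to each other, every one of them lay above the ventricular libraries, and ventricular replicate 1 came nearest. Ventricular replicates 1 and 2 rested on 14 and 3 reads. The atrial mean, 71.4 ± 8.30, was 3.08-fold the ventricular mean, 23.2 ± 15.4 (SD, n = 5), and the log2 difference was 1.80 ± 0.39 (limma, adjusted p = 0.00924). Both sets gave a like estimate, 1.71 ± 0.81 in replicates 1 and 2 (limma, adjusted p = 0.331) and 1.86 ± 0.16 in replicates 3 to 5 (adjusted p = 2.51e-10). Of the summed ligand level per kilobase Jag2 made up 25.2% ± 4.35 in atrial and 10.3% ± 6.81 in ventricular libraries. The gene lies on chromosome 12 (112907819 to 112929776, minus strand).

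Other lists were also higher in atrial libraries, and their part in the Jag2 value was not tested. Of 6 epicardial markers 5 were called, all toward atrial cells, and the list summed to 2483 to 6008 normalized reads in atrial and 381 to 2432 in ventricular libraries, with no marker at 0. The macrophage gene Csf1r and the neuronal gene Dbh were higher in atrial cells (limma, adjusted p = 0.000153 and 0.0206), each 1 called gene of its list, of which 3 and 2 were tested, and with the replicate block 2 macrophage genes passed toward atrium. The macrophage markers summed to 96.5 to 194 normalized reads in atrial libraries and 23.5 to 135 in ventricular libraries. Among the macrophage markers Adgre1, C1qa, C1qb, C1qc and Cd14 were at 0 in some libraries.

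Jag1, the Jagged ligand linked to Alagille syndrome in humans, was the most abundant ligand per length in both chambers, with 69.4% ± 4.62 of the ligand sum in atrial and 84.2% ± 11.1 in ventricular libraries. It had 182, 179.9, 151, 156 and 161 normalized reads in atrial replicates 1 to 5, against 121, 117, 155, 206 and 185 in ventricular replicates 1 to 5. The 2 sets ran in opposite ways: atrial libraries were the higher in replicates 1 and 2, and ventricular means were the higher in replicates 3 to 5. Over all libraries the log2 difference was 0.11 ± 0.17 (limma, adjusted p = 0.784). It was 0.60 ± 0.25 in replicates 1 and 2 (adjusted p = 0.249) and -0.21 ± 0.09 in replicates 3 to 5 (adjusted p = 0.0563). The difference between these estimates, 0.82 ± 0.19, was itself called (limma, adjusted p = 0.0343), and was not when all genes with any read were tested (adjusted p = 0.0605). Jag1 lies on chromosome 2 (137081456 to 137116644, minus strand).

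The Delta-like ligands were near the detection limit. Dll1 had 17, 1, 8, 8 and 8 reads in atrial replicates 1 to 5, against 3, 2, 2, 2 and 1 in ventricular replicates 1 to 5, which is 23.4, 1.44, 4.54, 4.72 and 5.15 against 10.4, 4.87, 1.24, 1.34 and 0.618 normalized reads. In replicates 3 to 5 the atrial values lay above the ventricular ones, and over all libraries the groups overlapped. In GENCODE M21, 867 of the 4219 exon bases of Dll1 also belong to A930024N18Rik on the opposite strand, which had no row. Since the strand setting of the counting is not given, the effect on the Dll1 reads is not known. Dll4, the Delta-like ligand of arterial endothelium, had 8, 0, 0, 1 and 0 reads in atrial replicates 1 to 5, against 2, 2, 1, 1 and 1 in ventricular replicates 1 to 5. Outside atrial replicate 1 no library had more than 2 Dll4 reads, at or below the limit that a count of 0 allows, so a chamber difference was not detectable at this depth. Without a filter on low values the log2 differences were 0.87 ± 0.69 for Dll1 and -0.68 ± 0.80 for Dll4 (limma, adjusted p = 0.730 and 0.805).

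Nrarp, the ankyrin-repeat protein that is a direct Notch target and limits the pathway by binding the receptor's intracellular domain with Rbpj, was lower in atrial cells. It had 17.9, 5.76, 15.9, 16.5 and 15.4 normalized reads in atrial replicates 1 to 5, against 24.2, 43.9, 66.3, 84.2 and 56.2 in ventricular replicates 1 to 5. Every atrial library lay below the ventricular ones, with atrial replicate 2 lowest of all, at 4 reads. The nearest values, atrial and ventricular replicate 1, rested on 13 and 7 reads, so the gap between them is within counting error. The atrial mean was 14.3 ± 4.87 and the ventricular mean 55.0 ± 22.7 (SD, n = 5), 3.84-fold higher, and the log2 difference was -1.84 ± 0.38 (limma, adjusted p = 0.00770). The estimates were -1.57 ± 0.73 in replicates 1 and 2 (limma, adjusted p = 0.305) and -2.02 ± 0.17 in replicates 3 to 5 (adjusted p = 1.27e-10). Nrarp lies on chromosome 2 (25180758 to 25183339, plus strand), where, in GENCODE M21, 2051 of its 2582 exon bases also belong to Gm38287 on the opposite strand. Since the strand setting of the counting is not given, reads of that antisense gene and of Nrarp cannot be told apart.

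Rbpj, the DNA-binding protein on which all 4 receptors act, differed by library set. It had 119.99, 139.6, 212, 213 and 227 normalized reads in atrial replicates 1 to 5, against 125, 115, 299.9, 349 and 325 in ventricular replicates 1 to 5. The chambers were intermingled in replicates 1 and 2 and separate in replicates 3 to 5, with the atrial libraries lower. Over all libraries the log2 difference was -0.30 ± 0.35 (limma, adjusted p = 0.704). It was 0.11 ± 0.27 in replicates 1 and 2 (adjusted p = 0.888) and -0.58 ± 0.07 in replicates 3 to 5 (adjusted p = 2.25e-07). The difference between the estimates, 0.69 ± 0.17, was called (limma, adjusted p = 0.0417), and was not when all genes with any read were tested (adjusted p = 0.0768). Rbpj lies on chromosome 5 (53466152 to 53657362, plus strand).

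The promoters of the called members Nrarp and Jag2 and of Rbpj are shown because these genes moved in different ways and because Rbpj itself binds the core TGGGAA while Hey and Hes repressors bind CACGTG and CACGCG. The windows are those of RefSeq on GRCm38.p6, 250 bases before to 50 after the annotated start, printed 5′ to 3′ on the gene's strand, with these 3 motifs in capitals on either strand. They are chr2:25180508-25180807 (plus strand), chr12:112929446-112929745 (minus strand) and, for the first of 2 Rbpj starts, chr5:53590096-53590395 (plus strand). Both Rbpj windows lie inside the GENCODE gene, which begins at 53466152, and that outermost start has no window here.
Nrarp: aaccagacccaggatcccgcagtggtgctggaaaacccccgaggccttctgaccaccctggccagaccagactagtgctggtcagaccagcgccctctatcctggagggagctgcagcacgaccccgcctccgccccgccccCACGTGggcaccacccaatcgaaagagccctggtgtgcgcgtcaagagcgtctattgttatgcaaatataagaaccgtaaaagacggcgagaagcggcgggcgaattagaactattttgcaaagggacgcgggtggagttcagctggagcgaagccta
Jag2: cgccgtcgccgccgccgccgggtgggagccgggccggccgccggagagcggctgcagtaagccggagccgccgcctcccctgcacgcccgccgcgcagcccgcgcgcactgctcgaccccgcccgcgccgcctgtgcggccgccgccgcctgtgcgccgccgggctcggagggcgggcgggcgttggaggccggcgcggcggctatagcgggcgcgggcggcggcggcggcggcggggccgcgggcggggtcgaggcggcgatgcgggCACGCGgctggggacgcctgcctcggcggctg
Rbpj: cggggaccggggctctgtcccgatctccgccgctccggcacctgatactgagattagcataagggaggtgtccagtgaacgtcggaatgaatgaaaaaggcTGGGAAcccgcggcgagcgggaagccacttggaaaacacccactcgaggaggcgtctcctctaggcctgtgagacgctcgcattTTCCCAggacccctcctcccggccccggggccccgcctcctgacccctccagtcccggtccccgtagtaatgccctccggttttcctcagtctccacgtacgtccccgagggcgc
TGGGAA, read on both strands as TGGGAA or TTCCCA, occurred in the windows of 1 of the 10 members, Rbpj, and in 25.6% of all 32851 promoter windows. CACGTG, its own reverse complement, was found in 1 member, Nrarp, beginning 108 bases before the start, and in 7.15% of all windows. CACGCG or its reverse complement was found in 5 members, Notch2, Jag1, Jag2, Dll1 and Dll4, and in 9.27% of all windows. The 10 members have 12 windows, so these counts of members and shares of windows are in unlike units and were not compared by a test. No matches overlap in the 3 windows printed, and a match describes letters, not binding.

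With the sets shown apart, replicates 3 to 5 held most of the calls. In replicates 3 to 5 alone, 6 of the 8 tested members were called (limma), Jag2 toward atrium and Notch1, Notch2, Notch3, Rbpj and Nrarp toward ventricle, where 52.8% of all genes tested were called. Notch2 passed there by a log2 difference of -0.17 ± 0.07 (adjusted p = 0.0441). Of the 8 tested members 5 did not overlap between chambers in these libraries, which held for 58.7% of all genes tested. The untested Dll1 and Dll4 did not overlap either, Dll4 at 0 or 1 read in atrial and 1 read in ventricular libraries, within counting error. Within a group these 3 libraries lay close together, their Pearson correlations being 0.991 to 0.994 across genes on the log2 scale, against 0.938 and 0.941 between replicates 1 and 2 and 0.870 to 0.916 across the sets. In replicates 1 and 2 alone, 0 of 8 members passed limma's adjusted threshold, where 5.14% of all genes did. At an unadjusted p under 0.05, 2 members passed limma there, Notch3 and Jag1. The share of all genes at that unadjusted threshold was not counted, so these 2 have no background to be set against. With both replicate 1 libraries left out, Jag2 and Nrarp were again the called members (limma, adjusted p = 0.00287 and 0.00353), where 17.3% of all genes were called.

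**Figure D3:**
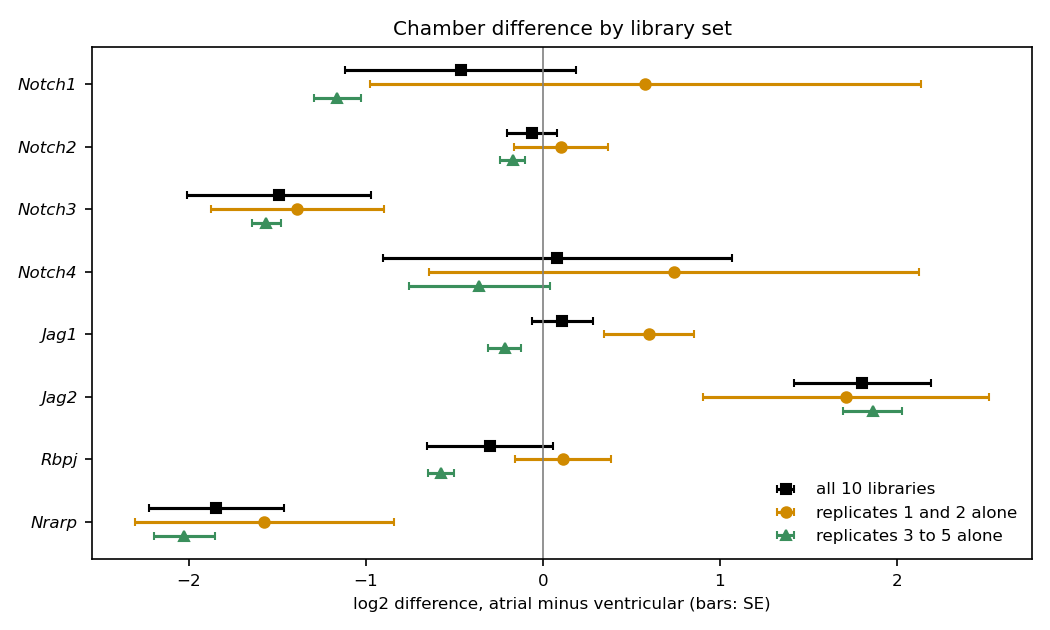
Log2 difference, atrial minus ventricular, with its SE for the 8 tested members over all 10 libraries (squares), in replicates 1 and 2 alone (circles) and in replicates 3 to 5 alone (triangles). Jag2 lies between 1.71 and 1.86, Nrarp between -2.02 and -1.57 and Notch3 between -1.56 and -1.39, while Jag1 and Rbpj lie at 0.60 and 0.11 in replicates 1 and 2 and at -0.21 and -0.58 in replicates 3 to 5.

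With the replicate number as a block, 3 members were called, Notch3 joining Jag2 and Nrarp, where 32.3% of all genes were called. With the library set as a term the same 3 were called, against 31.8% of all genes, and likewise by edgeR (16.2% of genes) and by DESeq2 (20.8%). The chamber difference was unequal between the sets for 2 of the 8 tested members, Jag1 and Rbpj, where 5.21% of all genes passed that test. Between the sets themselves, regardless of chamber, 4 members differed, against 52.7% of all genes. Notch4 was higher in replicates 1 and 2, and Notch3 (-1.57 ± 0.22), Rbpj (-1.09 ± 0.13) and Nrarp (-0.81 ± 0.30) were lower there (log2 differences, limma).

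Other genes of the pathway were mostly not called, as held for all genes tested. Of 58 genes in 5 lists, 48 were tested. Of these, 4 had an adjusted p under 0.05 toward atrium, 4 toward ventricle and 40 passed in neither direction, where 14.7% of all genes were called. With the replicate block 10 passed toward atrium and 8 toward ventricle, where 32.3% of all genes were called. The median log2 difference over the 48 was 0.10, beside -0.01 over all genes tested.

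Of 13 tested genes of receptor maturation and cleavage, 1 was called. Adam17, an ADAM protease that can shed the receptor's outer part, had a mean of 269.8 ± 12.02 normalized reads for atrial cells, against 348 ± 23.2 for ventricular cells, a log2 difference of -0.36 ± 0.09 (limma, adjusted p = 0.0229). Adam10, the protease that makes the ligand-dependent cut, averaged 814 ± 359 in the atrial group, against 489 ± 242 in the ventricular group, 0.77 ± 0.46 apart on the log2 scale (limma, adjusted p = 0.344, and 0.000255 with the replicate block). The block also called Furin, the convertase that cuts the receptor before it reaches the surface (0.55 ± 0.099), and Ncstn, a gamma-secretase subunit (0.48 ± 0.105). Both were higher in atrial cells, and without the block their SEs were 0.29 and 0.25.

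Of 12 tested genes of endocytosis and turnover, 3 were called, and 5 with the replicate block, which added Mib1 and Dtx3, both higher in atrial cells (limma, adjusted p = 0.0419 and 0.0156). Fbxw7, the ubiquitin ligase subunit that marks the receptor's intracellular domain for degradation, was 1.81-fold higher in atrial cells, with means of 838 ± 60.9 normalized reads there, against 463 ± 89.6 in ventricular cells, and a log2 difference of 0.87 ± 0.14 (limma, adjusted p = 0.00153). Neurl1b, a ubiquitin ligase of ligand endocytosis, and Dtx3l, of the Deltex family, were lower in atrial cells, by -0.61 ± 0.13 and -0.99 ± 0.16 on the log2 scale (adjusted p = 0.00820 and 0.00197). Of 16 tested nuclear cofactors, 2 were called, the Mastermind-like coactivators Maml2 (1.01 ± 0.30) and Maml3 (0.72 ± 0.20), both higher in atrial cells (limma, adjusted p = 0.0458 and 0.0344). The replicate block added the corepressor Ctbp1, lower in atrial cells (adjusted p = 0.00564). Of 3 tested non-canonical ligands, limma called 0 at the adjusted threshold and 0 at an unadjusted p under 0.05, and edgeR and DESeq2 called 0. With the block limma called Dlk1 (-0.84 ± 0.18, adjusted p = 0.00882) and Egfl7 (0.73 ± 0.19, adjusted p = 0.0175). Without the block their SEs were 0.56 and 0.90. Egfl7, an endothelial gene, had 209.6 normalized reads in atrial replicate 1 and 118 in ventricular replicate 1, against 7.44 to 34.5 in the other 8 libraries.

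Among the Hey and Hes repressors, families that include targets of the pathway, 4 of 7 were tested and the chambers divided between Hey1 and Hey2. Whether their levels follow Notch activity in these cells was not tested. Hey1 averaged 85.7 ± 24.8 normalized reads for atrial cells, against 22.8 ± 8.60 for ventricular cells, a log2 difference of 1.90 ± 0.28 (limma, adjusted p = 0.00101). Hey2 stood at 18.2 ± 7.003 in atrial cells, against 797 ± 125 in ventricular cells, with -5.45 ± 0.25 as the log2 difference (limma, adjusted p = 5.19e-07). Heyl (-0.94 ± 0.61) and Hes1 (-0.56 ± 0.25) were not called over 10 libraries without the block and were called with it (limma, adjusted p = 0.00168 and 0.00384).

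**Figure D4:**
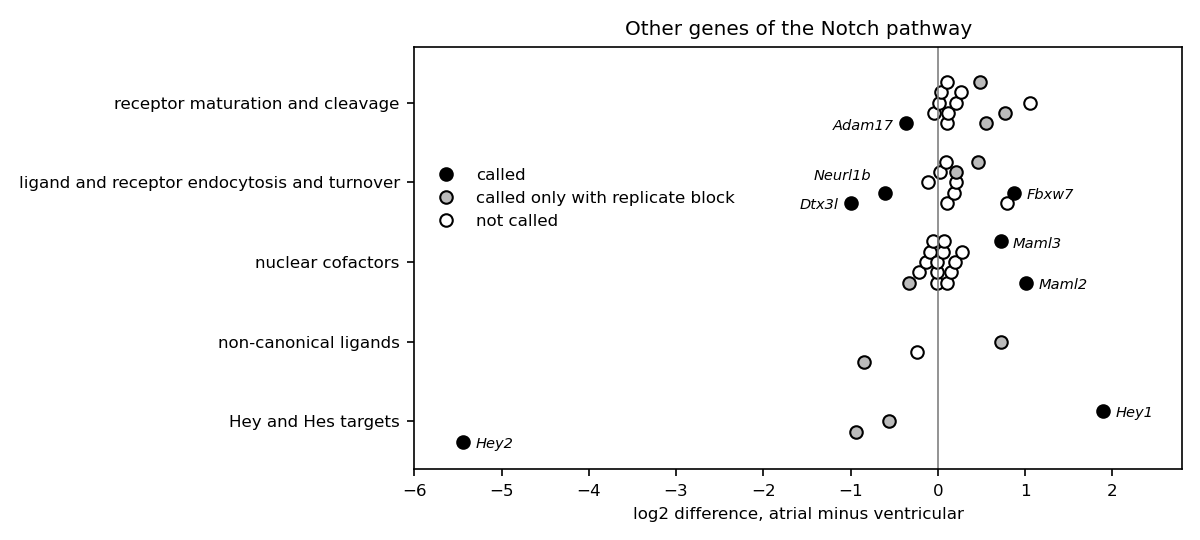
Log2 difference, atrial minus ventricular, of the 48 tested pathway genes outside the members, by list. Black points are called by limma over 10 libraries, grey points with the replicate block alone, and white points by neither. Hey2 lies farthest out at -5.45, the 8 called genes are named, and most others lie near 0.

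The genes whose profiles were most like those of the called members were found by the root mean square difference of centred log2 values over the 10 libraries, among 11955 named genes. Jag2 was closest to Rapgef3, a cAMP-activated exchange factor (0.333), and to Hcn4, the pacemaker channel (0.335). Nrarp was closest to Vash1, an angiogenesis inhibitor (0.256), and to Pnmal2 (0.343). Vash1 averaged 45.1 ± 11.1 normalized reads in atrial libraries, against 155 ± 67.4 in ventricular libraries, and Rapgef3 86.1 ± 13.8 in atrial libraries, against 21.96 ± 11.98 in ventricular libraries (SD, n = 5).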

How the data were processed

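RNA from 5 atrial and 5 ventricular cardiomyocyte samples was sequenced as total RNA after Trizol extraction and ScriptSeq v2 library preparation, per the labels' protocols. Trimmomatic, HISAT2 and featureCounts were used on GRCm38 (mm10), per the submitters' processing notes. Tool versions, annotation and strand setting were not given in the sources used here. Each deposited file holds a signal: the deposited signal is 1 DESeq2-normalized value per gene symbol, per the file headers. Dividing by each library's smallest value gave whole reads (tolerance 0.01) for 100% of values.

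The main test was limma 3.58.1 (R 4.3.3, trend and robust variance, two-sided) on log2(normalized reads + 1), for genes averaging 10 normalized reads or more, with Benjamini-Hochberg adjustment at 0.05. This scale understates changes of low genes. Folds are ratios of group means. edgeR 4.0.16 and DESeq2 1.42.0 were run on recovered reads as alternatives. DESeq2 gave an adjusted p for 12382 of 12422 genes. Same-numbered libraries' deviations from their group means correlated at 0.582, 0.637, 0.623, 0.556 and 0.631. The division into library sets, between which 52.7% of all genes differed, can also give such correlations. They therefore do not show that same-numbered libraries are pairs. Replicate number was used as a block in an alternative test and not in the main test. Blocked values or counts are printed for members and lists whose calls the block changes. No replicate pair was within sampling noise (chi-square per gene at least 2.23). The labels do not say that replicates are separate animals, so p-values reflect only library-to-library spread, possibly technical. Positions are from GENCODE M21 and promoters from RefSeq; all 10 members matched both. Scripts were tested on simulated data. The members and the gene lists were chosen with earlier results of these data known. Named are all members, up to 4 called genes of each list by size (or up to 2 with the smallest p), measured Hey and Hes genes, and the 2 genes of most similar profile per called member. Adam10, Furin, Ncstn, Lfng, Ccn3, Mib1, Dtx3, Ctbp1, Pecam1, Cdh5, Flt1, Tie1, Vwf, Pdgfrb and Rgs5 were named after their values were seen. The summed level of the neuronal and Schwann markers is not reported here.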

Additional observations from a re-analysis of the deposited data

Results flagged for a closer look

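Among the 20 groups of 5 libraries (10 members in 2 chambers), 7 held a library whose gap to its neighbour was large for the group's range by Dixon's 95% criterion. For independent, normally distributed values chance alone does this in about 1 in 20 groups. That rate cannot be set against the 7, since the groups share 10 libraries, values were not on the log2 scale and some rest on few reads. In 6 of them the library was replicate 1 and high. Atrial replicate 1 stood apart in Notch1 (286 normalized reads), Notch2 (501), Notch4 (77.2), Dll1 (23.4) and Dll4 (11.03), and ventricular replicate 1 stood apart in Notch4 (65.7). Nrarp was low in atrial replicate 2, at 5.76 normalized reads. Of 16 endothelial and endocardial markers, 11 were highest in replicate 1 of both chambers (Pecam1 626 and 329 normalized reads). Some macrophage, neuronal and cardiomyocyte markers were too, and the part of these cells was not tested. The share of all genes that were highest there was not counted.

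The chamber difference was unequal between replicates 1 and 2 and replicates 3 to 5 for Jag1, by 0.82 on the log2 scale, and for Rbpj, by 0.69 (limma interaction test, adjusted p = 0.0343 and 0.0417). In both genes the estimate was positive in the first set and negative in the second. The fibroblast marker sum, at most 22456 normalized reads in the first set and at least 31360 in the second, moved with the sets, and its part was not tested.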

How the results depend on the processing

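Jag2 and Nrarp kept their direction in every alternative that tested them, and lost their call in replicates 1 and 2 alone. The count of called members, 2, was 0 with a minimum mean of 50 normalized reads, which neither Jag2 nor Nrarp reaches, 6 in replicates 3 to 5 alone and 0 in replicates 1 and 2 alone. It stayed at 2 without any single library. The count of called genes, 1824, became 4017 with the replicate block, 3955 with the library set as a term, 6561 in replicates 3 to 5 alone and 638 in replicates 1 and 2 alone, and lay between 1365 and 1938 without single libraries. The edgeR test called 2012 genes and DESeq2 2575. The 8 called pathway genes became 5 without a filter on low values, 18 with the replicate block, 16 with the library set as a term, 24 and 3 in replicates 3 to 5 and 1 and 2 alone, and 5 to 8 without single libraries (5 without atrial replicate 3 or 5, or ventricular replicate 3 or 5). Without a filter 0 members had unequal differences between the sets by limma's adjusted p, and 2, Jag1 and Rbpj, did at an unadjusted p under 0.05. How many of all genes did so at the unadjusted threshold was not counted. Members without overlap numbered 7 in replicates 3 to 5, Dll1 and Dll4 included, and 2 to 3 without single libraries. Signs turned for members that were not called. Notch1 was at 0.067 by edgeR, 0.089 by DESeq2 and 0.58 in replicates 1 and 2. Notch2 was at 0.0086 with equal totals and 0.10 in replicates 1 and 2, and Rbpj at 0.11 there. Notch4 was at -0.36 in replicates 3 to 5 and -0.67 to 0.79 without single libraries. Jag1 was at -0.21 in replicates 3 to 5 and -0.0070 without both replicate 1 libraries, an alternative chosen after seeing the data. The cause was not tested. The replicate block changed no member's call other than that of Notch3. Reads in replicates 1 and 2, at most 4445287, limit what can be said of Dll1, Dll4 and Notch4. They also limit Jag2, with 14 and 3 reads in ventricular replicates 1 and 2. Nrarp is limited too, with 4 reads in atrial replicate 2 and 7 in ventricular replicate 1.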

Other observations

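Outside the members, 3 pathway genes had a chamber difference that was unequal between the library sets. Ccn3, a secreted protein that can bind Notch1, had a log2 difference of 1.77 in replicates 1 and 2 and -1.57 in replicates 3 to 5 (limma interaction test, adjusted p = 0.000543). The Fringe glycosyltransferase Lfng, which modifies receptors so that Delta-like ligands are favoured over Jagged ones, differed by 2.42 in the first set and 0.16 in the second (adjusted p = 0.0227). In ventricular replicates 1 and 2 Lfng stood at 3.46 and 7.31 normalized reads. That is at or below the limit that a count of 0 allows there, 10.4 and 7.31, so the estimate of the first set rests on few reads. Fbxw7 was higher in atrial cells in both sets, by 0.52 and 1.11 (adjusted p = 0.0359).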
